A study of Mus musculus with 4 samples.

Results

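The hearts of septic mice with and without melatonin were compared across all genes. The comparison set 1 RNA-seq library of heart from the CLP + MLT group against 1 library of heart from the CLP group, 2 of the 4 libraries of the series, and it was defined by these labels and not by any measured value. The other 2 libraries were from kidney and are used below only where their genes appear in the heart counts. The files list 55401 genes, and the 15871 that averaged 10 counts or more in the hearts were kept. All mice were of the C57BL/6 strain. CLP, or cecal ligation and puncture, was carried by both groups, and MLT is melatonin. The title of the melatonin library carries MLT with a number after it, which no source used here explains. The study's mice were males of a single age per its methods, and melatonin was dissolved in the drinking water in the kidney work; dose, duration and time of collection are not stated separately for the hearts. Nothing says how many mice went into a library, and libraries of sham-operated mice were not used here.

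In CLP, gut bacteria leak through the punctured cecum into the abdomen and cause sepsis, a whole-body inflammation in which the heart often contracts poorly although few heart cells die. The cardiomyocyte draws most of its ATP from oxidative phosphorylation, in which the respiratory chain complexes in the inner mitochondrial membrane pump protons and the ATP synthase uses the proton gradient; fatty acids are its main fuel. Melatonin is a hormone made at night by the pineal gland; it acts through 2 G protein-coupled receptors, is linked to the circadian clock, and is studied as an antioxidant.

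Gene counts summed to 16623050 for the CLP heart and to 15883057 for the CLP + MLT heart. Among reads placed on a gene or outside all of them, the share outside was 52.1% and 52.6%, and the mitochondrial genome took 31.6% and 35.99% of the gene counts. The libraries were scaled by TMM, a method that sets the bulk of genes equal, and each difference is given as a log2 ratio, CLP + MLT relative to CLP, so that 1 is a doubling and a negative value is a lower level with melatonin. The thresholds were a change of at least 1.5-fold together with a p of at most 0.01 in an exact binomial test on the reads. With 1 library a side the spread between mice is unknown, so no p is printed, and a call compares these libraries and not the treatments. The range after a log2 ratio is its 95% Clopper-Pearson interval, which covers counting error only and no spread between mice. Reads copied by PCR do not count separate molecules, so the interval can be too narrow even for counting error. As the RNA is from whole tissue, fewer cells of a type and less RNA per cell cannot be told apart.

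The labelled tissue was checked against its defining markers, which were present. Myh6, the main myosin of the adult mouse heart, had 208975 counts with CLP and 158174 with CLP + MLT, and the troponin gene Tnnt2 had 108140 and 75298. Of 9 listed atrial genes, Sln and Bmp10 were at 0 counts in both libraries and Myl7 had 1 and 0, while Nppa had 2287 and 1009 and Kcna5 had 638 and 594. Myh4, Myh1 and Myh2, which encode the fast myosins of skeletal muscle, were at 0 in both, and the Y-linked genes Ddx3y, Uty, Eif2s3y and Kdm5d were present in both with log2 ratios from −0.15 to 0.18. Genes of another organ were present as well. Kap, an androgen-regulated gene of the proximal tubule of the kidney, had 4352 counts in the CLP heart and 9602 in the CLP + MLT heart.

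Of 20 listed tubule genes 19 were kept, 12 were higher in the CLP + MLT heart library past the thresholds and none was lower, with a median log2 ratio of 1.22. Over all genes 6.86% were called higher and 8.75% lower, 15.6% in all. Lrp2, which encodes the endocytic receptor megalin, had 117 counts with CLP and 329 with CLP + MLT (1.50, 1.19 to 1.82). The phosphate transporter gene Slc34a1 had 587 and 1454 (1.32, 1.18 to 1.46). The water channel gene Aqp2 of the collecting duct had 26 and 143 (2.45). Set against the kidney library of the same treatment, the level of the 20 tubule genes in heart had a median of 1.93% of the kidney level for CLP (0.331 to 11.2%) and 3.13% for CLP + MLT (0.733 to 27.3%). The summed level of the listed tubule genes was 517.3 CPM in the CLP heart and 1012 CPM in the CLP + MLT heart, where CPM is the count scaled to a common library size.

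**Figure D1:**
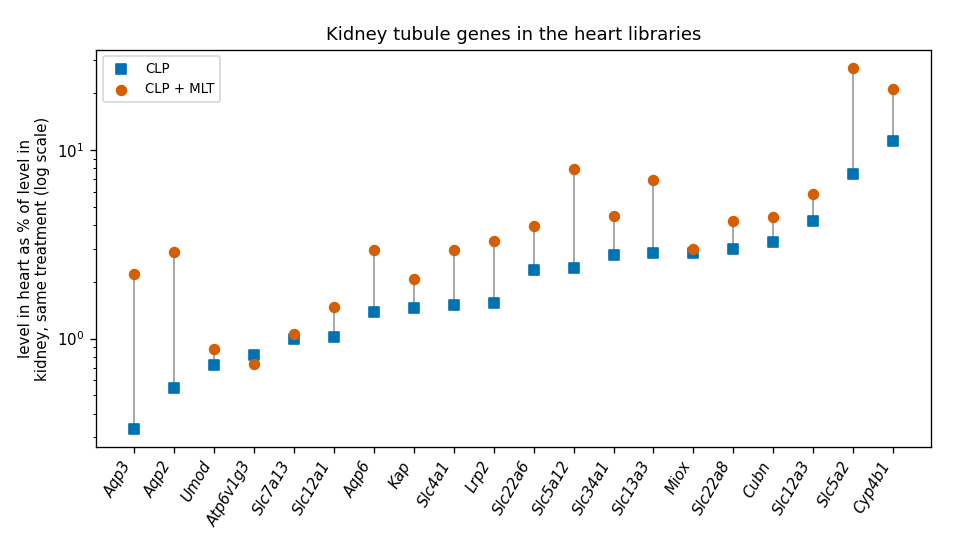
Level of 20 kidney tubule genes in the heart libraries as a percent of their level in the kidney library of the same treatment, on a log axis, with 1 point per library (squares CLP, circles CLP + MLT). The circle lies above the square for all genes but Atp6v1g3, and Slc5a2 and Cyp4b1 are highest in both treatments.

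The same held across the transcriptome. Of the genes kept, 416 stood at least 20 times higher in kidney than in heart in both treatments, and 350 of these were above a log2 ratio of 0 and 66 below it, with a median of 0.73, against −0.0092 for the other genes. They made up 186 of the 1089 genes called higher, or 17.1%, and 6 of the 1388 called lower, or 0.432%. For the 197 of them that had at least 100 CPM in kidney, the heart level had a median of 1.64% of the kidney level with CLP (0.273 to 4.85%) and of 2.70% with CLP + MLT (0.578 to 5.00%), ranges whose upper end is set by the choice of genes at least 20 times higher in kidney. Across these genes the heart ratio and the kidney ratio had a Pearson r of 0.50 and a Spearman rho of 0.47 (n = 197 genes, which share the same 4 libraries). How these reads came into the heart libraries was not tested. Wherever a gene list is described below, the share of its heart level that the median kidney fraction would supply was computed, and it is given for the lists the results turn on.

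Between the heart libraries, 2477 of 15871 genes (15.6%) passed the thresholds: 1089 had a higher level with melatonin and 1388 a lower one. Past 2-fold were 564 higher and 662 lower genes, and past 4-fold 144 and 102. The middle of the distribution was narrow: the median log2 ratio was 0.0023, and the quartiles were −0.29 and 0.27. Genes called lower were shorter than the rest, with a median exonic length of 2353 bases, against 3647 for genes called higher and 3956.5 for all genes kept. Pseudogenes of all types, whose reads can belong to their parent genes, numbered 111 among the lower calls and 37 among the higher ones.

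The 15 largest falls among genes averaging 100 counts or more held secreted proteins of the acute phase and genes of mitochondria. The largest was that of mt-Tn, the mitochondrial asparagine tRNA (mitochondrial genome, bases 5089 to 5159), with 4964 counts in CLP and 78 in CLP + MLT (−5.97). A tRNA is short and mostly lacks a poly-A tail, so its count in a poly-A selected library is uncertain. Next came Lcn2, which encodes the iron-siderophore trap lipocalin (chromosome 2 from 32384633 to 32388252), with 3224 and 372 counts, 8.60-fold lower (−3.10, −3.26 to −2.95). Lrg1, a secreted glycoprotein gene (chromosome 17 from 56119678 to 56122001), had 4383 and 548 counts, 7.94-fold lower (−2.99, −3.12 to −2.86). The metallothionein gene Mt1 (−2.12), the protease inhibitor gene Timp1 (−2.09), the serum amyloid gene Saa3 (−2.09), the complement gene C7 (−2.01) and Cdkn1a, which encodes the cell cycle inhibitor p21 (−1.99), followed. Coq7, of coenzyme Q synthesis (−1.98), and Cox7a1, the heart and muscle isoform of a complex IV subunit (−1.94), were the mitochondrial members. The others were Tmem69 (−2.17), the pseudogenes Gm14539 (−2.38) and Gm16418 (−2.03) and 2 RNAs that overlap genes on the other strand, A930001C03Rik (−2.05) and Gm49540 (−1.98). Gm49540 lies against Mb, the myoglobin gene (111327 and 35819 counts, −1.63), and the kit did not mark strand, so its 86585 and 21745 counts cannot be assigned to either gene.

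Of the 15 largest rises, 10 belonged to the genes at least 20 times higher in kidney (Plau, Akr1c21, BC024386, Napsa, Gm48702, Gcnt1, Mep1a, Keg1, Slc12a1 and Guca2b). The other 5 were not of that kind. Clec12a, an inhibitory lectin receptor gene of myeloid cells (chromosome 6 from 129342691 to 129365303), had 29 counts in CLP and 180 in CLP + MLT (2.62, 2.07 to 3.26). Myh7b, a slow-type myosin heavy chain gene that hosts a muscle microRNA (chromosome 2 from 155611212 to 155634307), had 1929 and 7080 counts, 3.70-fold higher (1.89, 1.81 to 1.96), and it overlaps Trpc4ap on the other strand. Arhgap30 (62 and 200 counts, 1.69) and Fgd2 (126 and 402 counts, 1.68) encode regulators of small GTPases in blood cells. Entpd4b had 54 and 162 counts (1.59), which are uncertain because it is a near copy of Entpd4.

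**Figure D2:**
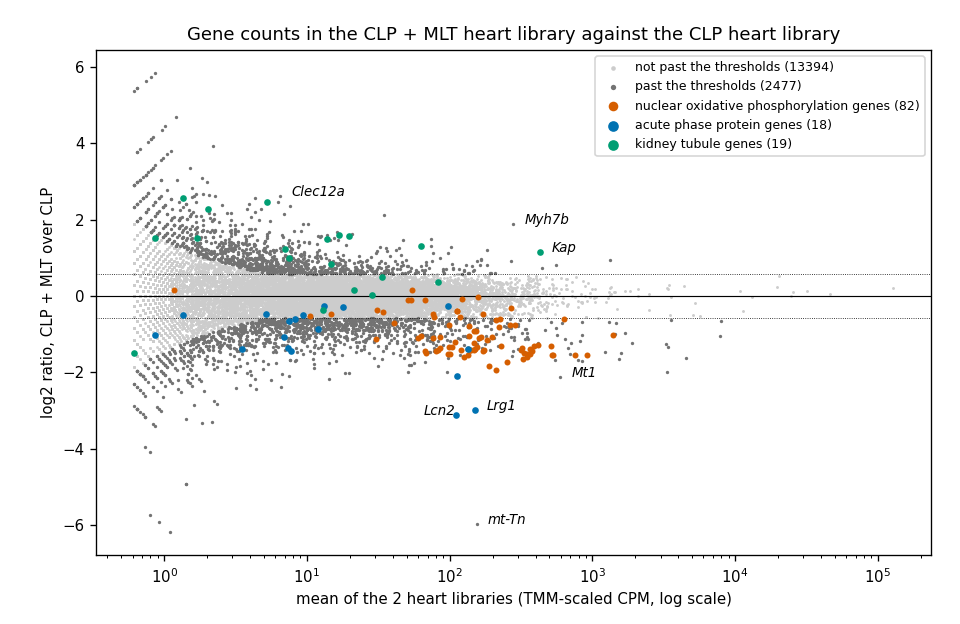
Log2 ratio of CLP + MLT over CLP for the 15871 genes kept (vertical axis) against the mean of the 2 heart libraries in TMM-scaled CPM (horizontal log axis), with 1 point per gene, dotted lines at a 1.5-fold change and coloured gene lists. The orange points of nuclear oxidative phosphorylation genes lie mostly between −2 and 0, the blue acute phase genes lie below 0 and most green kidney tubule genes above it.

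The counts of every list below are to be read beside the 6.86% of all genes called higher and the 8.75% called lower. Among the lists, the largest number of lower genes was that of oxidative phosphorylation. Of 82 nuclear genes for subunits of complexes I to V, all of them kept, 64 were lower in the CLP + MLT library past the thresholds (78.0%, against 8.75% of all genes) and none was higher, and 80 of the 82 ratios were below 0. The median was −1.22, and the summed level was 23790 CPM in CLP and 10510 CPM in CLP + MLT. In the kidney pair the median of the same genes was 0.33. At the median kidney fraction, kidney reads would supply 1.28% of their heart level with CLP and 5.79% with CLP + MLT.

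The medians of complexes I, III and IV and the ATP synthase lay close together, and that of complex II was −0.10. Complex I, the NADH dehydrogenase, had 30 of 36 genes lower with a median of −1.29, from Ndufv3 (3069 and 1013 counts, −1.59) to Ndufs1, a core subunit gene (2054 and 1927 counts, −0.08). Complex III had 7 of 9 lower with a median of −1.27, led by Uqcr11 (6299 and 1890 counts, −1.73). Complex IV, the cytochrome oxidase, had 12 of 17 lower with a median of −1.21. Its muscle isoforms Cox7a1 (5421 and 1399 counts, −1.94), Cox8b (4840 and 1348, −1.83) and Cox6a2 (18266 and 6203, −1.55) were lower. Of the isoform genes that other tissues use, Cox8a (838 and 923, 0.15) and Cox6a1 (862 and 798, −0.10) were near 0 and Cox7a2 had −1.21. In the CLP and CLP + MLT kidneys Cox8a had 483.6 and 545.9 CPM, Cox6a1 493 and 626.3, Cox7a2 135 and 165.4, Cox7a1 4.565 and 6.3, Cox8b 0.04076 and 0.1299, and Cox6a2 1.386 and 0.6495. The part of kidney reads in these ratios was not tested. The ATP synthase had 14 of 16 lower with a median of −1.22. Its catalytic subunit gene Atp5b (chromosome 10 from 128083273 to 128090391) had 30234 and 14767 counts (−1.02, −1.05 to −0.996). In complex II, which also serves the TCA cycle, Sdhb was lower (7525 and 2902 counts, −1.36), and Sdha, Sdhc and Sdhd lay between −0.10 and −0.03.

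The genes of the mitochondrial genome did not move as a block. Of the 13 that encode proteins, all of them subunits of the same complexes, mt-Nd3 (21130 and 6414 counts, −1.71) and mt-Atp6 (70980 and 45257 counts, −0.64) were lower past the thresholds and mt-Atp8 (413 and 949 counts, 1.21) was higher, with a median of 0.14. The remaining 10 had ratios of −0.51 (mt-Co3), −0.17 (mt-Co2), 0.05 (mt-Cytb), 0.11 (mt-Nd4), 0.14 (mt-Nd1 and mt-Nd6), 0.21 (mt-Co1), 0.24 (mt-Nd2), 0.35 (mt-Nd4l) and 0.52 (mt-Nd5). The ribosomal RNA genes mt-Rnr1 (−0.03) and mt-Rnr2 (−0.0026) were near 0. mt-Atp8 and mt-Atp6 overlap on the genome, and reads of mitochondrial genes can match nuclear copies, so single genes are uncertain.

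Of 35 genes of the mitochondrial ribosome 19 were lower, against 8.75% of all genes, and none was higher (median −0.63). Mrpl51 (1848 and 678 counts, −1.44) was at the bottom. Regulators of mitochondrial biogenesis and dynamics had 2 of 21 genes higher and 2 lower (19.05%, near the 15.6% of all genes), with a median of 0.07. Ppargc1a, the coactivator that drives biogenesis, had 505 and 534 counts (0.09), Tfam had 231 and 241 (0.07) and Nrf1 had 291 and 291 (0.01). Past the thresholds were Ppargc1b (56 and 121 counts, 1.11), Esrra (2538 and 3826, 0.60), the fission gene Fis1 (1480 and 817, −0.85) and the mitophagy kinase gene Pink1 (4995 and 2857, −0.80). In the RefSeq promoter windows, 250 bases before to 50 after each start in the GRCm38.p6 build, the NRF1 motif, GCGCA and GCGC with any base between them, was present for 18 of the 68 matched oxidative phosphorylation genes (26.5%) and for 5.19% of all genes, on either strand.

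Gene length moved with these results. Over all genes other than these, the median ratio went from −0.13 under 500 bases of exon to 0.07 at 8000 bases and over. A length trend was fitted over all genes kept, of any type and with these included. With that trend removed the oxidative phosphorylation median was −1.14, with 61 genes still lower. With the trend on GC content removed it was −1.19. Within a length range the difference was of the same order: between 1000 and 2000 bases the 31 oxidative phosphorylation genes had a median of −1.31 and the 1995 other genes −0.12, and between 4000 and 8000 bases the 10 had −1.06 and the 5391 others 0.03. Protein-coding genes of all kinds between 500 and 1000 bases had a median of −0.44, with 36.6% lower, against −0.14 and 18.9% for genes of any type other than oxidative phosphorylation, whose 19 genes in that range had −1.39. Among the 82 genes, Spearman's rho of length and ratio was 0.29, a description of these genes only. Another set of short, abundant mRNAs, the 77 kept genes of the cytosolic ribosome, had a median of −0.33, with 9 lower (11.7%, against 8.75% of all genes) and none higher; with the length trend removed the median was −0.27, with 4 lower and 1 higher.

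**Figure D3:**
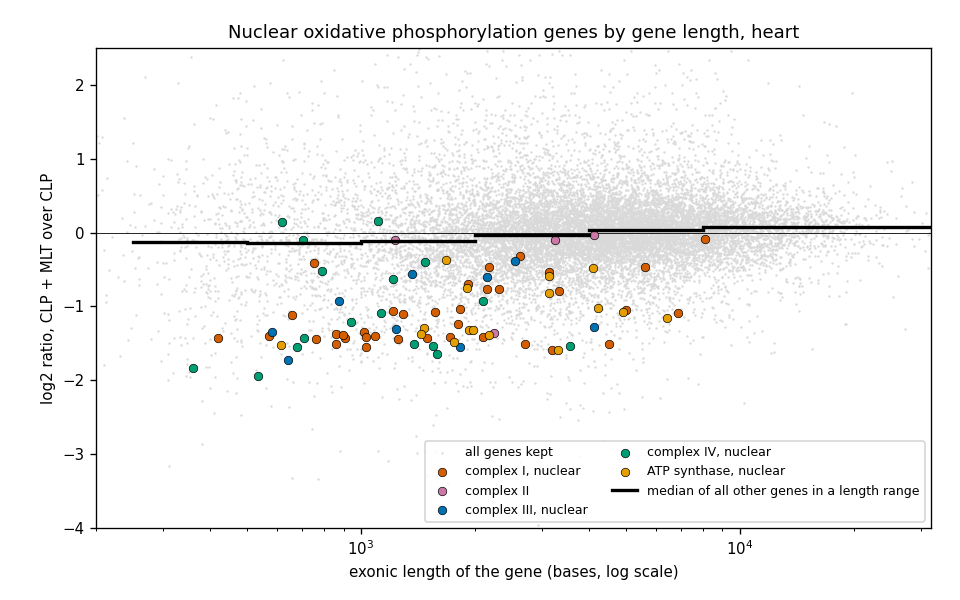
Log2 ratio of CLP + MLT over CLP against exonic length in bases (log axis) for the 82 nuclear oxidative phosphorylation genes, coloured by complex, over all genes kept in grey. The black steps, medians of all other genes in 6 length ranges, run from −0.13 to 0.07, and most of the coloured points lie below −0.5 at every length under 8000 bases.

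Fuel genes were lower in part. Of 22 fatty acid oxidation genes 8 were lower and 1 was higher (median −0.30), against 8.75% and 6.86% of all genes. The lower ones were led by Acaa2, of the last step of the cycle (5094 and 2046 counts, −1.31), Etfb (1124 and 452, −1.30) and Fabp3, the fatty acid carrier of the heart (16336 and 6882, −1.24). Of the carnitine shuttle, Cpt2 was lower (1874 and 818, −1.19) and Cpt1b, the muscle form of the rate-limiting step, was higher with few counts (112 and 177, 0.67). Cpt1a, the other listed form, had 1452 and 1465 counts (0.02) and did not pass. Why Cpt1b had fewer counts than Cpt1a was not tested. Cd36, the uptake transporter (−0.13), and Acadm (0.03) did not pass. Of 11 kept targets of the PPAR receptors and fuel-switch genes, 8 were lower and none higher (median −0.78), among them Pdk4, the kinase that shuts off pyruvate entry (6192 and 3589 counts, −0.78), the uncoupling protein gene Ucp3 (7048 and 3832, −0.87) and the lipid droplet gene Cidea (797 and 222, −1.83).

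The TCA cycle had 4 of 14 genes lower (median −0.39), led by Suclg1 (2137 and 957 counts, −1.15) and Mdh2 (6255 and 2932, −1.08), and Cs, for citrate synthase, had −0.58. Glycolysis had 6 of 19 lower (median −0.27). Its muscle isoforms Pgam2 (6692 and 2226, −1.58) and Eno3 (6896 and 3487, −0.97) passed, and the isoforms of other tissues, Pgam1 (180 and 209, 0.22) and Eno1 (1388 and 1402, 0.02), did not. Of the genes that carry ATP from the mitochondrion to the myofibril, the creatine kinases Ckm (16833 and 5886, −1.51) and Ckmt2 (7095 and 2682, −1.39) and the carrier Slc25a4 (38358 and 13561, −1.49) were lower. The carrier genes Slc25a5 (0.07) and Slc25a3 (0.03) and the brain isoform Ckb (0.06) did not pass.

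Sarcomere genes went both ways. Of 25 genes 11 were lower and 2 higher (median −0.51), against 8.75% and 6.86% of all genes. The thin filament gene Tnnc1 (19789 and 6144 counts, −1.68), the titin cap gene Tcap (38128 and 12022, −1.66), the light chain genes Myl3 (29110 and 10511, −1.46) and Myl2 (78757 and 31216, −1.33) and the troponin I gene Tnni3 (76057 and 31370, −1.27) were lower. The gene of the giant protein titin, Ttn, did not pass, with a log2 ratio of 0.20. Among the myosin heavy chains the fast alpha chain gene Myh6 had −0.39, below the 1.5-fold threshold. The slow beta chain gene Myh7 (chromosome 14 from 54970684 to 54994626), which rises in the stressed rodent heart, was higher with 14893 and 28424 counts (0.94, 0.91 to 0.97), as was Myh7b (1.89). Kidney reads at the median fraction would supply 0.0119% and 0.0438% of their summed heart level.

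Of 15 kept genes used as markers of cardiac stress 1 was higher and 5 were lower. Nppb, the B-type natriuretic peptide gene, was higher (143 and 395 counts, 1.47, 1.20 to 1.76), and its neighbour Nppa, which is strong in the atria, was lower (2287 and 1009 counts, −1.17, −1.28 to −1.06). Gja5 (133 and 65 counts, −1.02) and Myl4 (70 and 38, −0.86), also atrial-type genes, were lower too. That made 3 of the 5 kept atrial genes lower, against 8.75% of all genes. The other kept ones, Kcna5 (−0.09) and Dkk3 (7 and 21 counts, 1.53, 0.31 to 3.07), did not pass. Dkk3 was kept only through the library in which it is higher. The part of atrial tissue in the dissected hearts was not tested. Acta1, the skeletal actin of the fetal program, was lower (809 and 294, −1.45), as were Timp1, Spp1 (1531 and 855, −0.83) and Mybpc2 (118 and 70, −0.74). Ankrd1 (2361 and 2609, 0.15) did not pass. Kidney reads at the median fraction would supply 21.1% of the summed stress marker level with CLP and 8.35% with CLP + MLT. Spp1 had 10230 CPM in the CLP kidney and 2111 CPM in the CLP + MLT kidney, and the part of kidney reads in its ratio was not tested.

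Calcium handling and ion channel genes mostly stayed under the thresholds. Of 19 calcium genes 1 was higher and 3 were lower (median −0.12). The higher one, Ppp1r1a (61 and 124 counts, 1.03), had 228.8 CPM in the CLP kidney and 431.7 CPM in the CLP + MLT kidney. The part of kidney reads in its ratio was not tested. The ryanodine receptor gene Ryr2 (10785 and 9417 counts, −0.19), the calcium pump gene Atp2a2 (26997 and 21176, −0.34), its inhibitor phospholamban, Pln (22405 and 23789, 0.10), and the channel gene Cacna1c (21387 and 22175, 0.06) did not pass. The calcium binders S100a1 (6591 and 2405, −1.44) and Hrc (7863 and 3595, −1.12) did. Of 24 channel genes 2 were higher and 2 lower (16.7%, near the 15.6% of all genes). Kcnip2, the subunit that sets the transient outward potassium current, was higher (1790 and 4095 counts, 1.20, 1.12 to 1.29). Kcnj3, of the acetylcholine-gated potassium channel, was lower (1261 and 803, −0.64). Adrb1, the main beta receptor gene of the cardiomyocyte, had 41 and 61 counts (0.58) and did not pass.

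**Figure D4:**
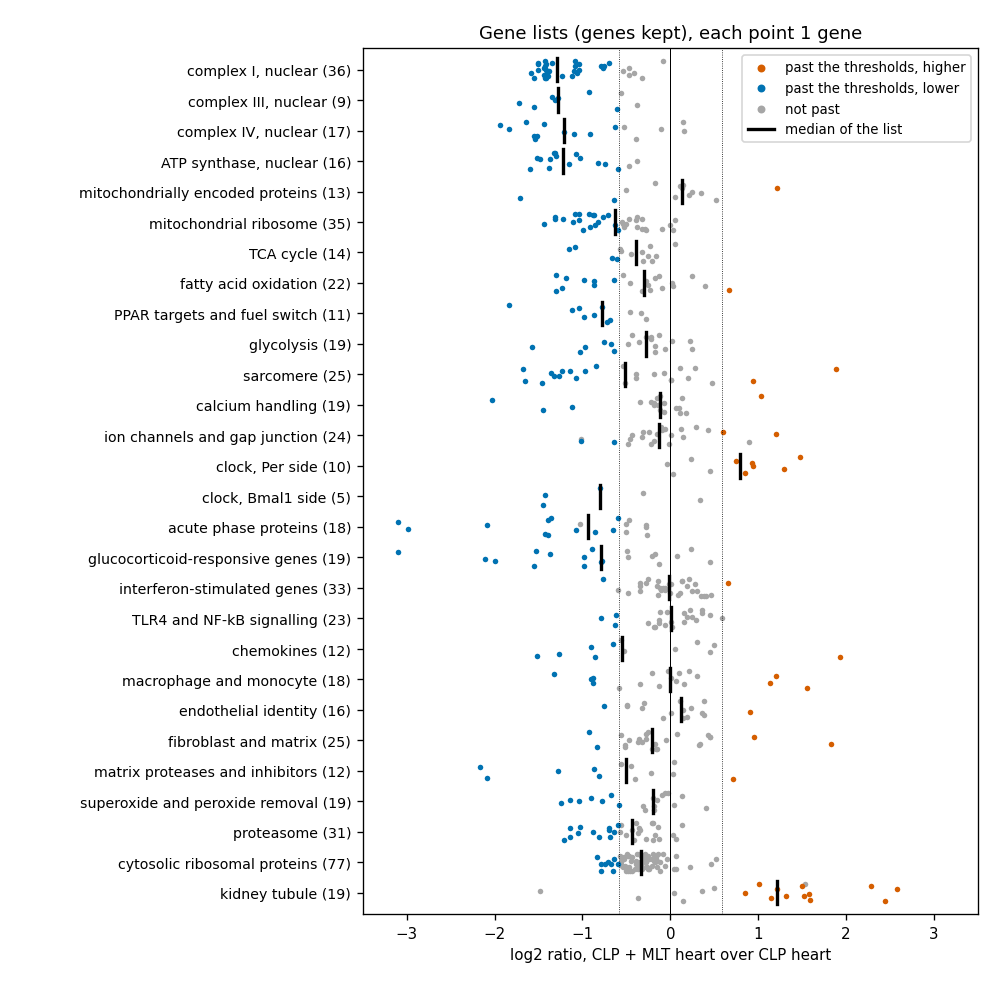
Log2 ratio of CLP + MLT over CLP for the kept genes of 28 lists, with 1 point per gene, orange past the thresholds and higher, blue past them and lower, grey not past, a black bar at the median of each list and dotted lines at a 1.5-fold change. The 4 nuclear oxidative phosphorylation rows sit furthest left as blocks, while the interferon-stimulated and TLR4 rows centre on 0.

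The circadian clock is a loop in which BMAL1 (gene Arntl) with CLOCK or NPAS2 binds E-boxes, letters CACGTG, and switches on the Per genes, the Rev-erb genes Nr1d1 and Nr1d2, and the D-box factors Dbp, Tef and Hlf. The PER proteins then block BMAL1, the D-box factors act on D-boxes, letters TTATGTAA, and the REV-ERB proteins repress Arntl and Nfil3 through response elements called ROREs. Promoter windows of members on each side are shown with these letters in capitals, searched on both strands; each is the RefSeq window in the GRCm38.p6 build, 5′ to 3′ on the strand of the gene, with the annotated start after base 250. The windows of Arntl and Nfil3 hold the RORE letters AGTAGGTCA, which 0.192% of all 32851 windows hold. That of Ciart holds 3 E-boxes (7.15% of windows hold at least 1), and that of Per3 holds 2 D-boxes (0.938%).
Arntl, chr7:113207261-113207560, plus strand: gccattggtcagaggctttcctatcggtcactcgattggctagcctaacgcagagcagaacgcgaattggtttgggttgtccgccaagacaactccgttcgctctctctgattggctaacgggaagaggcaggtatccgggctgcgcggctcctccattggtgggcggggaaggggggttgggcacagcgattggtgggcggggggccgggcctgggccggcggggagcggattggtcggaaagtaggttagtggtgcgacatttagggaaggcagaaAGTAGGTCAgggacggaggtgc
Nfil3, chr13:52980990-52981289, minus strand: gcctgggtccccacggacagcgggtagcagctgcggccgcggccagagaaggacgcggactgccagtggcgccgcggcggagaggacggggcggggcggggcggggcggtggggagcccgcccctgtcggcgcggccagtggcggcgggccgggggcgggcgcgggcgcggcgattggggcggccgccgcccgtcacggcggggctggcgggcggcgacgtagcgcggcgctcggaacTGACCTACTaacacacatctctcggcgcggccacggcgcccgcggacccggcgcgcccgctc
Ciart, chr3:95882179-95882478, minus strand: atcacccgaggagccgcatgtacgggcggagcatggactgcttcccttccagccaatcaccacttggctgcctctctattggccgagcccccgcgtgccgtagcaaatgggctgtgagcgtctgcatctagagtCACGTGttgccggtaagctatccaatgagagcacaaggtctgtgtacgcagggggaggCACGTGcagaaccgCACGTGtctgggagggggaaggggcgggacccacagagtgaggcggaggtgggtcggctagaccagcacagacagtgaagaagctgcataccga
Per3, chr4:151044616-151044915, minus strand: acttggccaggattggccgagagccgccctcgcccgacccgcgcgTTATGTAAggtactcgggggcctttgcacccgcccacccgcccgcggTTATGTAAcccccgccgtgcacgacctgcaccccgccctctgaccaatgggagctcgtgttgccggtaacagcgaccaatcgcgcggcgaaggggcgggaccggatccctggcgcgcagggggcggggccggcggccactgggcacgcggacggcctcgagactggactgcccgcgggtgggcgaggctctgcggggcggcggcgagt
The first base of the match lay at position 29 in Arntl and −12 in Nfil3 from the start, where it is on the other strand. It lay at −116, −58 and −44 in Ciart and at −205 and −158 in Per3. Within the lists, E-box letters were found for 4 of the 9 matched genes of the Per side (Bhlhe41, Ciart, Per1 and Tef) and the RORE letters for 2 of the 5 of the Bmal1 side. A match is a description of the letters in the window.

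On the Per side, 6 of 10 genes were higher in the CLP + MLT heart, against 6.86% of all genes, and none was lower. Dbp (chromosome 7 from 45705088 to 45710203) had 698 counts with CLP and 1704 with CLP + MLT (1.30, 1.17 to 1.43), and Hlf had 64 and 178 (1.48, 1.07 to 1.92). The third D-box factor gene, Tef, had 5422 and 9014 counts (0.74). Per2 had 1842 and 3507 (0.94), Per3 had 1202 and 2148 (0.85) and the repressor gene Ciart had 114 and 217 (0.94). The other 4 did not pass: Nr1d2 with 5253 and 7108 counts (0.45), Per1 with 1965 and 2290 (0.23), Bhlhe41 with 169 and 171 (0.03) and Nr1d1 with 1086 and 1049 (−0.04).

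On the Bmal1 side, 3 of 5 genes were lower, against 8.75% of all genes, and none was higher. Arntl (chromosome 7 from 113207465 to 113314126) had 357 counts with CLP and 129 with CLP + MLT (−1.46, −1.76 to −1.16). Npas2, whose protein is a partner of BMAL1 in the loop, had 141 and 52 (−1.42, −1.92 to −0.96). The D-box repressor gene Nfil3 had 289 and 164 (−0.81, −1.09 to −0.53). Clock (579 and 462, −0.32) and Cry1 (169 and 213, 0.34) did not pass. Of 16 other clock genes and outputs, Cry2 (282 and 495, 0.82) and Bhlhe40 (259 and 481, 0.90) were higher and Cdkn1a and Herpud1 (−0.59) lower. The kidney pair, which shares no library with the heart pair but may share its mice, had medians of 0.77 and −0.88 for the sides. No source used here gives the time of day at which the hearts were taken, so that treatment and time of collection cannot be told apart.

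**Figure D5:**
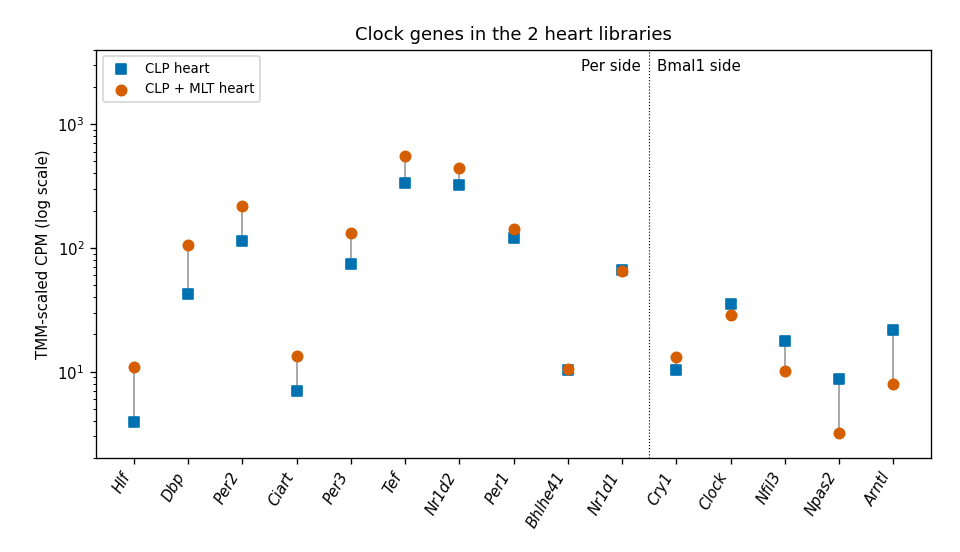
Level of clock genes in TMM-scaled CPM (log axis) in the CLP heart (squares) and CLP + MLT heart (circles), 1 library each, with the 10 genes of the Per side left of the dotted line and the 5 of the Bmal1 side right of it. From Hlf to Tef the circle is well above the square, and from Nfil3 to Arntl it is below.

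Melatonin's own receptors were not detected. Mtnr1a and Mtnr1b were at 0 counts in both libraries, as were Aanat and Asmt, which encode the last enzymes of its synthesis. The nuclear receptor gene Rora (199 and 218 counts, 0.14) and Nqo2, whose protein binds melatonin (206 and 227, 0.15), did not pass.

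Acute phase proteins are secreted in inflammation, mostly by liver under IL-6 and IL-1, and some by other tissues. Of 18 kept genes 11 were lower in the CLP + MLT heart (61.1%, against 8.75% of all genes) and none was higher, with a median of −0.94, and their summed level was 1079 CPM with CLP and 342.2 CPM with CLP + MLT. After Lcn2, Lrg1 and Saa3 came Lbp, the carrier of lipopolysaccharide (185 and 68 counts, −1.43), and the protease inhibitor gene Serpina3n (3201 and 1207, −1.40). Saa1 (153 and 72, −1.07) and Saa2 (174 and 67, −1.36) are near-identical, so their counts are uncertain. The fibrinogen genes Fgb (149 and 94, −0.65) and Fgg (162 and 106, −0.60) passed and Fga (180 and 126, −0.50) did not, nor did the haptoglobin gene Hp (−0.28) or the ceruloplasmin gene Cp (−0.26). Liver genes were also present at low counts, with Alb at 140 and 70 (−0.99) and Ttr at 29 and 24 (−0.26); of the 9 kept liver genes 4 were lower and 2 higher. Their part in the acute phase result was not tested. At the median kidney fraction, kidney reads would supply 3.41% and 2.67% of the summed acute phase level, which does not give the share for single genes. In the CLP kidney Fga, Fgb, Fgg and Saa1 had 454.5, 193.8, 552.5 and 144.5 CPM. In the CLP + MLT kidney they had 29.81, 1.169, 40.4 and 4.676 CPM. The part of kidney reads in the heart ratios of these genes was not tested.

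Genes of inflammatory signalling were called at about the 15.6% of all genes. Of 23 genes of TLR4 and NF-kB signalling 3 were lower (13.04%), Tlr2 (94 and 54 counts, −0.78), Tlr4 (94 and 60, −0.63) and Nfkbib (230 and 149, −0.61), none was higher and the median was 0.01. Of 16 genes of the IL-6 and STAT3 axis 3 were lower (18.8%), the decoy receptor gene Il1r2 (23 and 5, −2.09), Il4ra (1450 and 870, −0.73) and Bcl6 (618 and 398, −0.62). Il1r2 was kept only through the library in which it is higher. Socs3, the feedback inhibitor, had 574 and 533 counts (−0.10). Interferon-stimulated genes were flat, with 1 of 33 higher, 1 lower (6.06% called, under the 15.6% of all genes) and a median of −0.02.

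Cytokine genes were mostly at low counts, and of 10 kept 4 were higher and 1 lower. Tnf had 15 and 44 counts (1.53), Il33 had 41 and 69 (0.75) and Cxcl12, grouped here, had 1297 and 2105 (0.71), each of them higher, and the interleukin-1 receptor antagonist gene Il1rn was lower (49 and 10, −2.23). The anti-inflammatory cytokine gene Il10 had 1 count with CLP and 21 with CLP + MLT, a ratio of 21.1 with a counting interval of 3.40 to 874, and was kept only through the library in which it is higher. Lif (2 and 12 counts) was not kept. Il1b (48 and 36, −0.40) and Tgfb1 (314 and 263, −0.25) did not pass, and Il6 had 0 and 1 counts. Of 12 kept chemokine genes 5 were lower and 1 was higher, or 3 and 2 with the length trend removed: Cxcl13 (375 and 130, −1.51), which draws B cells, and Ccl9 (294 and 121, −1.27) were lowest, and Cxcl9 (16 and 62, 1.93), an interferon-gamma target, was the higher one. Ccl2, the monocyte chemokine gene, had 79 and 111 counts (0.50). Cxcl5, which draws neutrophils, had 15 and 0, at least 4.97-fold lower if each library's floor is set to 3 counts.

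Markers of immune cells did not share a direction. Of 18 macrophage genes 3 were higher: Adgre1, which encodes F4/80 (104 and 305 counts, 1.56, 1.24 to 1.90), Ccr2, the receptor of recruited monocytes (15 and 35, 1.21), and the lysozyme gene Lyz2 (998 and 2171, 1.13). Lower were Mrc1 (407 and 220, −0.88) and Cd163 (279 and 150, −0.88), scavenger receptors of resident macrophages, Fcgr1 (−0.90) and Gpnmb (−1.32), while Cd68 (82 and 80, −0.03) and Csf1r (897 and 991, 0.15) did not pass. The summed macrophage level was 251.1 CPM with CLP and 325.5 CPM with CLP + MLT, a rise about that of Lyz2 alone. The median log2 ratio of the list was −0.008, with 9 genes above 0 and 9 below. The antigen-presenting genes H2-Eb1 (16 and 73, 2.16, 1.41 to 3.08) and H2-Aa (38 and 73, 0.94) were higher. H2-Ab1, the partner of H2-Aa (71 and 49, −0.52), and Cd74 (193 and 175, −0.13) did not pass.

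Of 10 kept neutrophil genes 5 were lower and none higher, among them Lcn2, also in the acute phase list, Ngp (37 and 10, −1.83) and S100a9 (270 and 154, −0.80), and S100a8 had 244 and 164 (−0.56). Ly6g was at 0 counts in both, and Csf3r, the growth factor receptor of neutrophils, had 260 and 243 (−0.09). Lymphocyte genes were near the limit of detection, with Cd3d, Cd3g, Cd79a and Ms4a1 at 0 in both libraries, and the immunoglobulin gene Ighm had 25 and 115 counts (2.19). Of 15 complement genes 4 were lower, led by C4b (1509 and 733, −1.03) and C1qa (888 and 508, −0.80), and the receptor gene C3ar1 was higher (87 and 166, 0.94).

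Many genes that respond to glucocorticoids, the adrenal stress hormones, were lower. Of 19 genes 11 were lower (57.9%, against 8.75% of all genes) and none was higher, with a median of −0.79. Besides Lcn2, Cdkn1a and Pdk4 these were Fkbp5, which dampens the glucocorticoid receptor (1230 and 424 counts, −1.53, −1.69 to −1.37), Arrdc2 (3927 and 1512, −1.37), Zbtb16 (769 and 386, −0.98), Angptl4 (1594 and 798, −0.99), Ddit4 (803 and 428, −0.90), Sult1a1 (−0.79) and the metallothionein genes. Tsc22d3, which encodes GILZ (1281 and 904, −0.49), Sgk1 (3034 and 3172, 0.07) and Per1 did not pass. Several members also belong to the acute phase, clock or PPAR lists, so that the lists are not separate evidence.

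Metallothioneins, small proteins that bind zinc and copper, are switched on by metals through metal response elements and by glucocorticoids and IL-6. Mt1 (chromosome 8 from 94179082 to 94180327) had 15667 counts with CLP and 3591 with CLP + MLT, 4.33-fold lower (−2.12, −2.17 to −2.06). Mt2 had 2882 and 977 (−1.55, −1.66 to −1.45). Slc39a14, the zinc and iron importer gene that inflammation raises, had 2066 and 1046 counts (−0.97), and Slc39a10 (−0.08), Slc30a1 (0.21) and Mtf1, the metal-sensing factor gene (0.09), did not pass. Slc30a2, a zinc exporter gene, was higher (7 and 39 counts, 2.41), at 1.11% and 10.3% of its kidney level. It was kept only through the library in which it is higher, and the part of kidney reads was not tested. The promoter window of Mt1 is shown because it holds 3 matches to TGCGCNC or TGCACNC, the core of the metal response element, in capitals; 25.7% of all windows hold at least 1, and so do those of Mt1, Mt2 and Mt3.
Mt1, chr8:94178839-94179138, plus strand: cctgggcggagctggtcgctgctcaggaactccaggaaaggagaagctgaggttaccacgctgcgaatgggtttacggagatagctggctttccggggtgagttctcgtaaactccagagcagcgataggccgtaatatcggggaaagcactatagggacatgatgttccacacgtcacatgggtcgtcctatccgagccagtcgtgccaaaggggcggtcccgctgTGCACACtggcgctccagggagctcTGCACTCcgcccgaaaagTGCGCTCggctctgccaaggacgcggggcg
The matches began at positions −23, 3 and 21. Iron genes were lower in part, with 8 of 16 lower and none higher (median −0.61), among them the iron exporter gene Slc40a1 (215 and 93, −1.19) and Hfe (1086 and 616, −0.81). Tfrc, the transferrin receptor gene (343 and 415, 0.28), and Ftl1 (3097 and 3983, 0.37) did not pass.

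Of the genes that remove superoxide and peroxide, 7 of 19 were lower and none higher (median −0.20). Sod2, the mitochondrial superoxide dismutase gene (chromosome 17 from 13006846 to 13040063), had 2490 counts with CLP and 1647 with CLP + MLT (−0.59, −0.68 to −0.50), 1.50-fold and so at the threshold. Sod1 (5417 and 2869, −0.91), Prdx5 (4086 and 1707, −1.25), Gpx4, the guard against lipid peroxides (6362 and 2871, −1.14), and Prdx2 (1996 and 1152, −0.78) were lower, and Cat (−0.19), Gpx1 (0.04) and Prdx3 (0.40) did not pass. Kidney reads at the median fraction would supply 16.2% and 33.4% of this list's summed level. Of 15 ROS-producing enzymes 2 were higher and none lower: Nox4, the constitutively active oxidase gene (35 and 62 counts, 0.83, 0.21 to 1.48), and Rac2 (126 and 347, 1.47), and Cybb, the phagocyte oxidase gene, had 88 and 85 (−0.04). With the length trend removed 1 of the 15 was higher. The heart level of Nox4 was 2.88% and 5.38% of its kidney level, where the median kidney fractions were 1.64% and 2.70%; the part of kidney reads in its ratio was not tested. NRF2 targets were mostly under the thresholds, with 1 of 20 higher and 3 lower, and Hmox1 (265 and 215, −0.29) and Nqo1 (209 and 181, −0.20) among the others.

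Of 16 endothelial genes 12.5% were called and of 25 fibroblast and matrix genes 16%, near the 15.6% of all genes. Among the endothelial genes 1 was higher, the VEGF receptor gene Kdr (1759 and 3277 counts, 0.91), and 1 lower, the tight junction gene Cldn5 (810 and 478, −0.75), and Pecam1 (2931 and 2747, −0.08) and Cdh5 (3043 and 3341, 0.14) did not pass (median 0.12). Of the activation and barrier genes, Procr, the protein C receptor gene (35 and 12 counts), and Angpt1, which stabilises vessels (376 and 180, −1.05), were lower and the apelin receptor gene Aplnr was higher (108 and 276, 1.36). Icam1 (921 and 828, −0.14), Vcam1 (192 and 155, −0.30) and Nos3 (2474 and 2443, −0.01) did not pass, while Nos2, the inducible nitric oxide synthase gene, was higher (60 and 112, 0.90). Of the fibroblast and matrix genes 2 were lower, Col1a1 (596 and 312, −0.92) and the collagen cross-linker gene Lox (196 and 109, −0.83), and 2 were higher, Col15a1 (158 and 303, 0.95) and Tnc (7 and 26, 1.83), which was kept only through the library in which it is higher. Among 12 genes of matrix proteases and their inhibitors 5 were lower, Adamts4 (47 and 10, −2.17), Timp1 (199 and 46, −2.09), Mmp3 (365 and 149, −1.28), Mmp14 (406 and 221, −0.87) and Mmp15 (500 and 282, −0.82), and Adamts1 was higher (486 and 789, 0.71).

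Protein turnover genes were lower in part. Of 31 proteasome genes 12 were lower and none higher (median −0.44), with the catalytic subunit genes Psmb5 (670 and 287 counts, −1.21) and Psmb6 (1553 and 697, −1.15) lowest. The muscle ubiquitin ligases of atrophy, Fbxo32 (2117 and 1171, −0.84) and Trim63 (1680 and 1077, −0.63), were lower, as were Ctsd (4537 and 2096, −1.10) and Map1lc3a (2946 and 1386, −1.08), 4 of 20 genes of that list. Of 22 heat shock protein genes 3 were lower and none higher (13.6%, near the 15.6% of all genes), among them Hspb7 (9499 and 4012, −1.23) and Cryab (7721 and 3639, −1.08), small heat shock proteins of muscle, and Hspa1a, Hspa1b and Hsf1 lay between −0.40 and 0.26.

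Several stress responses were near the share of all genes. Of 24 genes of the ATF4 and unfolded protein response 3 passed (12.5%) and of 19 hypoxia-inducible genes 3 did (15.8%), with medians of −0.04 and −0.05. Of 20 immediate early genes 3 were higher, among them Atf3 (78 and 172 counts, 1.15) and Fosl1 (18 and 43, 1.24), and none was lower. Of 19 kept cell death genes none passed in either direction. The death receptor gene Fas had 2644 and 1773 counts (−0.57) and Bax had 456 and 418 (−0.12).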

How the data were processed

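RNA-seq was analysed for 1 CLP heart and 1 CLP + MLT heart library, with the kidney library of each treatment for comparison of levels. The authors selected poly-A RNA, made libraries with a kit that does not mark strand, trimmed the reads with trim-galore and aligned them to mm10 with HISAT2 2.1.0. They deposited raw counts of reads per gene, without normalization. The submitters' processing notes name HTSeq, but no source used here gives its version, strand setting or annotation. The 5 total rows in each file that name no gene were left out of library sizes, and the row for reads on no gene held 29.6% of the reads for CLP and 31.0% for CLP + MLT.

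Names, positions and exonic lengths came from GENCODE M21, which matched 54349 of 55401 identifiers with their version and 792 without it; 260 kept the identifier. TMM factors (0.981 and 1.02) were computed from the deposited counts in R 4.3.3 with edgeR 4.0.16 and, as an alternative, DESeq2 1.42.0. Ratios used a prior count of 0.5 and were computed in Python 3.11.15 with scipy 1.17.1, and the steps were tested on simulated data. The fold and p thresholds are those the study states for edgeR; a lone library per group gives no dispersion, so p came from the exact binomial test. A ratio against 0 counts used a floor of 3 counts per library. A list is described by its counts and median, with no set test.

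The members and the gene lists were chosen with earlier results of these data known. The genes named are the 15 largest rises and 15 largest falls with a mean of at least 100 counts, up to 6 called genes of each list with members that stand for its role, all clock genes and mitochondrial protein genes, the study's RT-PCR genes, and genes that check the labels. The values of some genes are not reported here. mt-Rnr1, mt-Rnr2 and Mb were named after their values were seen. Alternatives were library size, DESeq2 or upper quartile scaling, other filters and prior counts, no mitochondrial or haemoglobin genes, a 2-fold threshold, the edgeR exact test with a variation between mice assumed, and removal of length or GC trends.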

Additional observations from a re-analysis of the deposited data

Results flagged for a closer look

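Some genes with opposite ratios in heart and kidney are given, each of which passed the thresholds in both organs in opposite directions. They are not all the genes of that kind. Of the nuclear oxidative phosphorylation genes, 64 of 82 were lower in heart. In the kidney pair 13 of the 81 kept were higher and 1 was lower. Ndufa13, lower in heart (−1.44), had 240.5 CPM in the CLP kidney and 411.7 CPM in the CLP + MLT kidney. The difference between the organs was not tested, and each organ had 1 library per treatment. mt-Nd3 had a log2 ratio of −1.71 in heart and 2.099 in kidney, where it had 5472 counts with CLP and 14712 with CLP + MLT. mt-Atp6 had −0.64 in heart and 0.72 in kidney. The pseudogene Gm14539 had −2.38 in heart and 0.88 in kidney, and the pseudogene Gm16418 had −2.03 in heart and 0.91 in kidney; reads of both can belong to their parent genes.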

How the results depend on the processing

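No paired analysis was possible because each group had 1 library and the labels give no replicate numbers, and no library could be left out. No list median past 1.5-fold reversed under any alternative run, and no named gene past the thresholds did under the scaling, filter, prior and gene-removal alternatives run for single genes. With a threshold of 2-fold, 564 genes were higher and 662 lower, 2 genes of the Per side were higher and 6 glucocorticoid-responsive genes were lower. With a mean of at least 50 counts, which leaves fewer genes, 704 were higher. With the edgeR exact test and a coefficient of variation between mice set to 0.2, 292 genes were higher and 370 lower, 2 genes of the Per side were higher, and 7 acute phase and 6 glucocorticoid-responsive genes were lower. At 0.4, 42 genes were higher and 21 lower, 0 genes of nuclear oxidative phosphorylation, the sarcomere or the Bmal1 side were lower and 0 of the Per side higher, 2 acute phase genes and 1 glucocorticoid-responsive gene were lower and 1 tubule gene was higher. Leaving out genes at least 20 times higher in kidney, an alternative chosen after the data were seen, left 1 kidney tubule gene higher. Over the other alternatives the remaining 106 values of these 9 counts stayed within 1.5 times. Of 125 counts over other lists, 1473 values under the alternatives stayed within 1.5 times, 251 were smaller and 26 larger by over 1.5 times; 26 values of the 66 list medians moved and 897 did not. Scaling by library size gave 1299 higher and 1187 lower genes. The variation between mice is not known, so which of these counts applies cannot be told from these libraries; genes with few counts have the widest intervals.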

Other observations

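Further gene groups were called at shares near the 15.6% of all genes: 18.8% of 16 cholesterol genes, 12.5% of 16 cell cycle genes and 1 of 5 nerve and Schwann genes. Of the genes of cholesterol synthesis and uptake 3 were higher and none lower, with a median log2 ratio of 0.24. Sqle, of a rate-limiting step, had 8 counts with CLP and 30 with CLP + MLT (1.85) and was kept only through the library in which it is higher, Cyp51 had 46 and 104 (1.18) and Mvd had 111 and 204 (0.88). At the median kidney fraction, kidney reads would supply 8.996% of this list's level with CLP and 20.5% with CLP + MLT, and their part was not tested.

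Cell cycle genes were split at low counts. The G1 cyclin gene Ccnd1 was higher (314 and 676 counts, 1.11) and the proliferation marker Mki67 was lower (91 and 37, −1.28), while Pcna (178 and 215, 0.28) and Mcm6 (159 and 185, 0.23) did not pass. Genes of fast skeletal muscle, whose myosins were at 0 counts, were also split. The troponin gene Tnni2 had 64 and 6 counts (−3.30) and the myosin light chain gene Mylpf had 49 and 95 (0.96). The calcium buffer gene Pvalb had 0 and 20, at least 6.71-fold higher with a floor of 3 counts per library. Tnni2 and Pvalb were each kept only through the library in which the gene is higher. Markers of sympathetic nerve and Schwann cells were scarce, with Gfra3 at 16 and 2 counts and Uchl1 at 181 and 118 (−0.61). Haemoglobin genes, a measure of blood in the tissue, did not pass, with Hba-a1 at 1354 and 1311 counts (−0.04) and Hbb-bs at 2463 and 1914 (−0.35); both have near copies that can share their reads.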
